A study of Drosophila melanogaster with 3 samples.

Results

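The 7 genes described here encode the dosage compensation complex of Drosophila melanogaster, and they were matched by symbol among the 17785 genes listed in the 3 single-cell matrices. They comprise the RNA genes lncRNA:roX1 and lncRNA:roX2, the genes msl-1, msl-2 and msl-3 for the Msl proteins, mle for an RNA helicase and mof for a histone acetyltransferase. All 7 were present in every matrix. Germ cells were cells with UMIs (unique molecular identifiers, counts of captured RNA molecules) for at least 3 of 7 germ genes (vas, nos, pgc, zpg, aub, CG17650 and CG14545). There were 1073 such cells of 9430 in the female library, 4377 of 6329 in the male library and 3198 of 3657 in the unsexed library. Other cells had UMIs for at most 1 germ gene and for at least 3 markers of 1 of 13 cell types. They numbered 6449 in the female, 714 in the male and 209 in the unsexed library.

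In flies, males have a single X chromosome and females a pair, and the complex raises transcription of the male X so that its output matches that of the female. The roX RNAs are joined by the helicase Mle to the Msl proteins, and Mof then acetylates histone H4 along the X. In females the splicing factor Sxl blocks production of Msl-2, without which the complex does not form, and roX1 is also known to be made in early female embryos. Germ cells of the fly are known to lack the complex at later stages, and pgc, whose RNA is laid down in the egg, silences transcription in newly formed germ cells.

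Embryos were dissociated and sorted for GFP, and each of the 3 groups was 1 droplet library. The female and male libraries came from 5 to 8 h embryos carrying Sxl-GFP and vas-GFP and used kit version 3. The unsexed library came from 0 to 8 h embryos carrying vas-GFP alone and used kit version 2. All groups thus carried vas-GFP, a germ cell reporter, and the gate on GFP set which other cells were collected. How embryos or cells were sexed is not given in the sources used here. With 1 library per group there was no replicate and no test, and every interval below covers counting error only, at 95%. Sex, library and any batch cannot be told apart, and neither can age and kit version between the unsexed and the sexed libraries.

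The matrices held 109431813 UMIs in the female, 47345241 in the male and 58378567 in the unsexed library. Median depth was 18539 UMIs in female germ cells, 7718 in male germ cells and 16675.5 in unsexed germ cells. In other cells it was 7364 UMIs in the female, 4015.5 in the male and 3770 in the unsexed library. The female and male libraries shared 17 barcodes, the female and unsexed libraries 1, and the male and unsexed libraries 0. Levels are in CPM, the UMIs of a gene relative to all UMIs of its cell class, scaled to a common total. The summed level of Y-linked genes was 0.437 CPM among female and 20.1 CPM among male germ cells. Among other cells it was 0.154 CPM for females and 2.39 CPM for males, each from 8 or 9 UMIs. Exactly 3 germ genes, the least the rule allows, were found in 83 female, 978 male and 82 unsexed cells, and 2 germ genes in 241, 410 and 75 cells. Markers of another cell type, at least 3 of 1 list, were found in 23.4% of female germ cells, 4.89% of male germ cells and 11.2% of unsexed germ cells.

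In the annotation of build BDGP6.54, lncRNA:roX1 (FBgn0019661) lies on chromosome X at 3857230 to 3862697 on the minus strand, where it overlaps ec on the opposite strand. The shorter lncRNA:roX2 (FBgn0019660) lies on X at 11579065 to 11580432 on the plus strand. The gene mof (FBgn0014340) is the only X-linked protein gene of the 7, at 5873840 to 5876853. On 2L, msl-1 (FBgn0005617) lies at 18683720 to 18688800, and msl-2 (FBgn0005616) at 3462218 to 3466112, where it contains the microRNA gene mir-4971 on its own strand. On 3L, msl-3 (FBgn0002775) lies at 7123213 to 7125533 and overlaps form3 on the opposite strand. The gene mle (FBgn0002774) lies on 2R at 5974857 to 5980778. The sources used here do not say whether strand entered the counting, so reads of ec and form3 may be part of the counts of roX1 and msl-3.

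Each roX RNA was at a lower level in germ cells than in other cells of the same library. In germ cells roX1 stood at 184 CPM in the female library (exact Poisson interval 178 to 190), 104 CPM in the male (101 to 108) and 61.4 CPM in the unsexed library (59.3 to 63.5). In other cells it stood at 1036 CPM in the female library (1028 to 1044), 1932 CPM in the male (1886 to 1980) and 831 CPM in the unsexed library (776 to 888). The counting intervals of these summed roX1 levels did not overlap between germ and other cells in any library, which says nothing on overlap between single cells. The germ level of roX2 was 5.87 CPM in the female (4.87 to 7.01), 9.08 CPM in the male (8.11 to 10.1) and 5.42 CPM in the unsexed library (4.81 to 6.08). Its level in other cells was 25.9 CPM in the female (24.6 to 27.3), 84.9 CPM in the male (75.3 to 95.4) and 56.1 CPM in the unsexed library (42.6 to 72.5). For both RNAs the male library was highest among other cells, whereas among germ cells it was highest for roX2 and the female library for roX1.

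Of the Msl proteins, msl-2, the subunit under Sxl control, followed the roX pattern. Its RNA was at 5.92 CPM in female germ cells (4.92 to 7.07), 5.22 CPM in male germ cells (4.49 to 6.04) and 5.06 CPM in unsexed germ cells (4.47 to 5.70). In other cells msl-2 was at 11.4 CPM in the female library (10.5 to 12.3), 26.9 CPM in the male (21.6 to 33.1) and 25.2 CPM in the unsexed library (16.4 to 36.9). The 3 germ values overlapped within counting error, and the female value was the lowest among other cells. The scaffold gene msl-1 was at 33.9 CPM in female germ cells, 38.0 CPM in male germ cells and 9.89 CPM in unsexed germ cells, and at 37.0, 46.0 and 26.1 CPM in the other cells of the same libraries. The gene msl-3, whose protein reads a histone methyl mark, was at 18.3 CPM in female germ cells, 22.9 CPM in male germ cells and 16.4 CPM in unsexed germ cells. In other cells msl-3 was at 11.9 CPM in the female library, 13.7 CPM in the male and 15.5 CPM in the unsexed library.

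In CPM the helicase gene mle was nearly level between cell classes of the sexed libraries. It stood at 42.8 CPM in female germ cells, 44.2 CPM in male germ cells and 22.1 CPM in unsexed germ cells, and at 45.3, 47.5 and 28.1 CPM in the other cells of the same libraries. The ratio of germ over other cells for mle was 0.946 in females and 0.929 in males. The median autosomal gene was higher, at 1.48 and 1.52. The acetyltransferase gene mof had more RNA in germ cells than in other cells of every library. The msl-3 level was also higher in germ cells of both sexed libraries, to about the extent of the median autosomal gene. The germ level of mof was 45.8 CPM in the female (43.0 to 48.9), 34.7 CPM in the male (32.8 to 36.7) and 22.6 CPM in the unsexed library (21.3 to 23.9). Its level in other cells was 12.1 CPM in the female (11.2 to 13.0), 19.4 CPM in the male, from 65 UMIs, and 3.87 CPM in the unsexed library (1.05 to 9.91), the last from 4 UMIs.

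**Figure D1:**
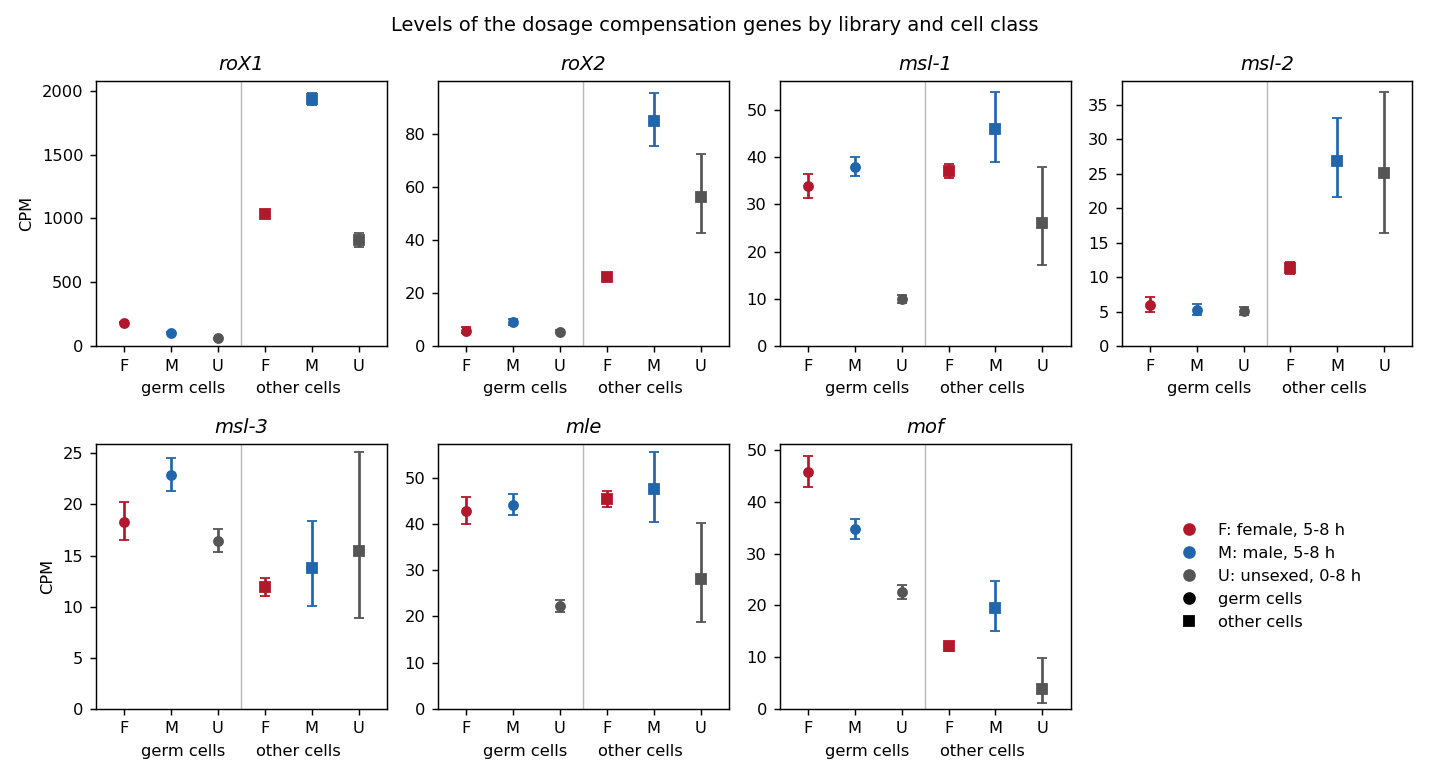
Levels of the 7 genes in CPM (linear axes from 0) in germ cells (circles) and other cells (squares) of the female (F), male (M) and unsexed (U) library; points are CPM of summed UMIs and bars exact Poisson intervals at 95%. The roX RNAs and msl-2 sit low in all germ classes, mof sits higher in germ cells than in other cells, and msl-1, msl-3 and mle differ less between classes of the sexed libraries.

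Germ cells were set against other cells within each sexed library, where kit and age window are shared. Genes with at least 20 CPM in 1 class and at least 100 UMIs over both were compared, and a gene was called at a CPM ratio of at least 2 in either direction. In the female library 5 members passed this size filter and 3 were called, against 50.9% of 5571 genes called, 35.9% higher and 15% lower. The ratio of germ over other cells was 3.80 for mof (exact conditional interval 3.44 to 4.19), 0.178 for roX1 (0.172 to 0.184) and 0.227 for roX2 (0.187 to 0.273). Among male cells all 7 passed and 3 were called, against 50.6% of 5583 genes, 35.2% higher and 15.4% lower. There the ratio was 0.0541 for roX1 (0.0519 to 0.0563), 0.107 for roX2 (0.0908 to 0.126) and 0.194 for msl-2 (0.150 to 0.253). The female roX1 ratio was 0.111 with classes by cluster, 0.114 without germ cells that carried markers of another type and 0.268 with likely doublets kept. For mof the male ratio was 1.79 (1.39 to 2.33), under the limit. X-linked medians were 1.56 in females and 1.10 in males, and 83.8% and 71.7% of X-linked genes had a lower ratio than mof. For msl-3 the ratio was 1.53 (1.35 to 1.74) in females, under the size filter, and 1.67 (1.24 to 2.30) in males, against autosomal medians of 1.48 and 1.52.

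The share of genes called in either direction was so high that 3 of 5 or 3 of 7 members is near the background. By direction, 2 of 5 members in females and 3 of 7 in males were called lower, against 15% and 15.4% of genes. Of these, roX2 in both libraries and msl-2 in males passed the size filter only through other cells. Germ levels were 5.87 CPM for female roX2, 9.08 CPM for male roX2 and 5.22 CPM for male msl-2. At such levels, passing at 20 CPM in other cells fixed the call, so the counts by direction carry no weight for them. Among female called genes 1999 were higher and 838 lower in germ cells, and with TMM scaling, which centres the bulk of genes, 1176 were higher and 1240 lower. Of X-linked genes past the filter, 4.93% of 993 had a lower ratio than roX1 among female cells, and 2.66% of 902 among male cells. Markers of other cell types, 78 in all, were seen in germ cells as well. Summed, they stood at 899 CPM in female germ cells and 6116 CPM in female other cells, a share of 14.7%, and at 641 CPM in male germ cells and 5752 CPM in male other cells, a share of 11.1%. On the same scale roX1 in germ cells stood at 17.8% of its other-cell level for females and 5.41% for males. For roX2 this share was 22.7% for females and 10.7% for males. All 78 markers had UMIs in female germ cells and 77 in male germ cells, and the most abundant were elav, peb and crq for females and crq, zfh1 and elav for males. The marker crq was at 84.5 CPM in female germ cells, above its 59.2 CPM in other cells. The part of RNA from other cell types in the germ levels was not tested.

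Female germ cells had more roX1 and mof RNA than male germ cells, and less roX2. None of the 5 members past the filter was called, against 1.07% of 5152 genes called either way, 1.03% higher and 0.0388% lower in females. The female over male ratio was 1.76 for roX1 (1.68 to 1.84) and 1.32 for mof (1.21 to 1.44). These values lie on either side of the median ratio of 1.46 over 912 X-linked genes, while the median over 4152 autosomal genes was 0.929. Of the X-linked genes, 88.0% had a lower ratio than roX1 and 28.4% a lower ratio than mof. From 121 female and 318 male UMIs, roX2 had a ratio of 0.647 (0.520 to 0.800), below that of every X-linked gene past the filter, although its level was under the 20 CPM needed to be counted among them.

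The 4 autosomal members differed less. The female over male ratio in germ cells was 0.893 for msl-1 (0.813 to 0.979), 0.798 for msl-3 (0.704 to 0.903), 0.970 for mle (0.892 to 1.05) and 1.13 for msl-2 (0.894 to 1.43). Intervals of mle and msl-2 included 1, and msl-2 was under the size filter. Of autosomal genes, 5.88% had a lower ratio than msl-3.

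**Figure D2:**
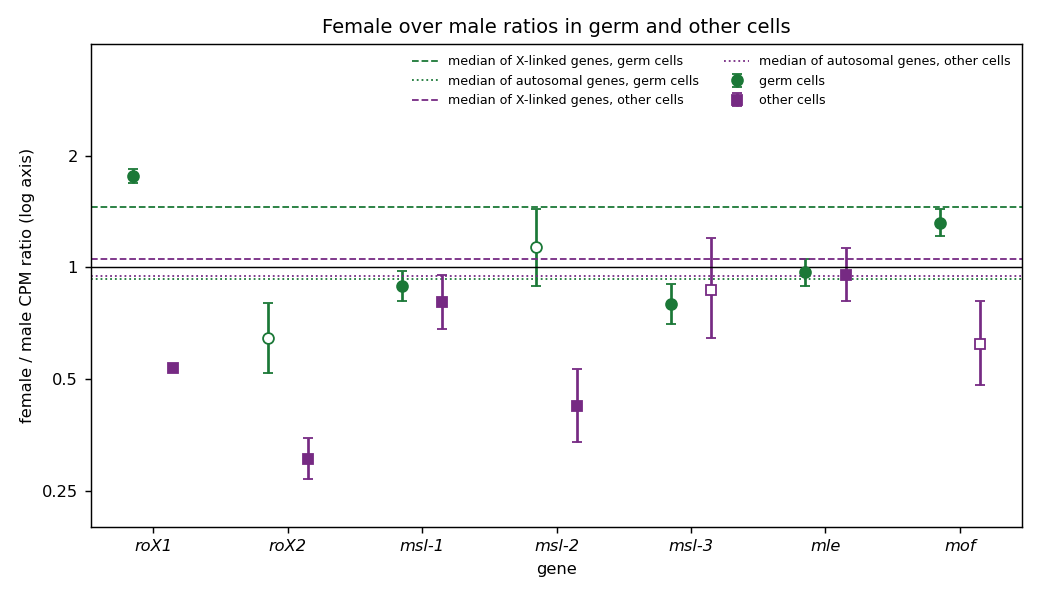
Female over male CPM ratio (log axis) of each gene in germ cells (circles) and other cells (squares) with exact conditional intervals at 95%; open symbols mark genes under the size filter, and lines give the medians of X-linked and autosomal genes. In germ cells roX1 stood at 1.76 and mof at 1.32, and in other cells roX1, roX2, msl-2 and mof lay between 0.305 and 0.621.

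The roX1 ratio of germ cells depended on the cells with markers of another type. Without them 822 female cells had roX1 at 118 CPM and 4163 male cells at 92.3 CPM, a ratio of 1.27 (1.20 to 1.35). With such markers, 251 female cells had it at 350 CPM and 214 male cells at 267 CPM, a ratio of 1.31 (1.20 to 1.43). The ratio in either subset was thus below that over all germ cells, in which the marker-bearing cells made up a larger share of the female library. The marker rule also depends on depth. Marker-bearing germ cells had a median of 21646 UMIs in the female and 10298.5 UMIs in the male library. Remaining germ cells had 17601 and 7628 UMIs. A shallow male cell could thus more easily be placed among cells without markers, and the part of depth was not tested. Within the female library roX1 was 2.98-fold higher in marker-bearing than in remaining germ cells (2.79 to 3.18), and 2.90-fold higher in the male library (2.66 to 3.15). For mof the corresponding ratios were 1.03 (0.893 to 1.19) and 0.878 (0.686 to 1.11). Without marker-bearing cells mof was at 45.4 CPM for females and 35.0 CPM for males. At 1.27, roX1 no longer stood above the X-linked median, and 22.1% of 905 X-linked genes were then lower. Keeping the cells removed as likely doublets had the opposite effect and brought the ratio to 2.35, past the limit.

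Germ cells without pgc UMIs were also set apart from those that had at least 1. This division depends on depth, and cells without pgc had a median of 19018 UMIs in the female and 7955 UMIs in the male library, so a male cell could be placed there at a higher pgc level. Female pgc-free cells had roX1 at 217 CPM and male ones at 98.8 CPM, a ratio of 2.20 (2.07 to 2.33). Female cells with pgc had it at 140 CPM and male ones at 114 CPM, a ratio of 1.22 (1.13 to 1.32). Without the marker-bearing cells these ratios were 1.28 (1.19 to 1.39) and 1.24 (1.13 to 1.36). In that subset the pgc-free cells had less roX1 than the cells with pgc in both sexes. Female values were 112 CPM without pgc and 125 CPM with it, and male values were 87.1 CPM without pgc and 101 CPM with it. The female over male ratio of roX2 was 0.753 in pgc-free cells (0.567 to 0.992) and 0.517 in cells with pgc (0.363 to 0.725), and the intervals overlap. Ratios of mof were 1.28 and 1.39 in the same order, and those of msl-3 were 0.729 (0.618 to 0.857) and 0.920 (0.755 to 1.12). Intervals of each of the 4 autosomal members overlapped between both subsets.

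**Figure D3:**
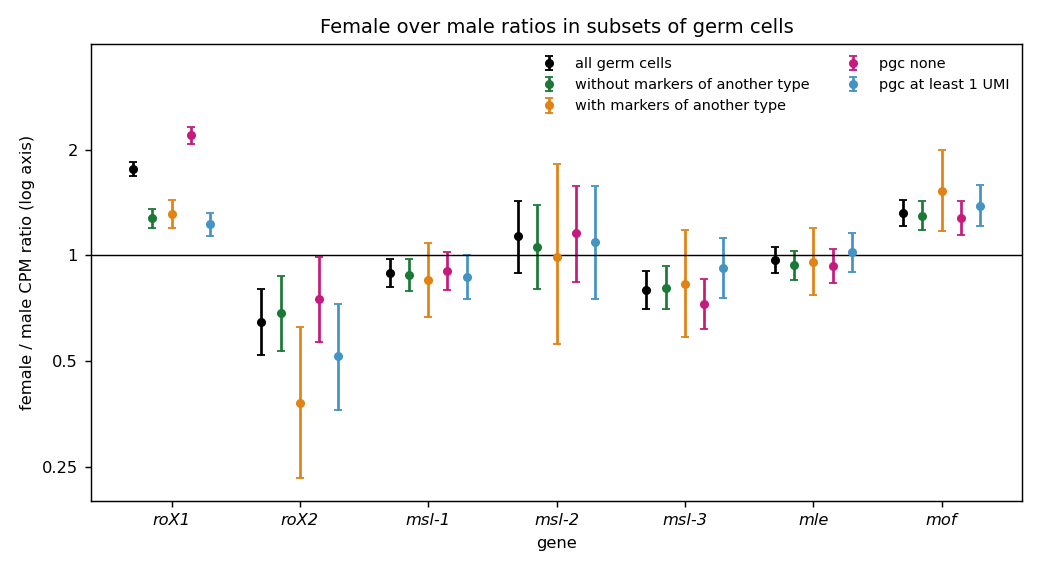
Female over male CPM ratio (log axis) of each gene in all germ cells and in subsets with or without markers of another cell type and with or without pgc UMIs; bars are exact conditional intervals at 95%. The roX1 ratio ranged from 1.22 to 2.20 over the subsets plotted, and that of mof from 1.28 to 1.52.

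In other cells roX1 and mof had ratios below 1. Of the 5 members past the filter, roX2 and msl-2 were called lower in the female library, against 1.22% of 4583 genes called lower and 1.51% called higher, 2.73% in all. These were 69 higher and 56 lower genes, and with TMM scaling 102 were higher and 36 lower. The gene msl-2 passed the filter only through the male library, at 26.9 CPM against 11.4 CPM in the female. Its place among the members compared thus depended in part on its high male level. The female over male ratio was 0.305 for roX2 (0.269 to 0.348) and 0.423 for msl-2 (0.339 to 0.533). For roX1 it was 0.536 (0.522 to 0.550), short of the limit, with 60675 female and 6465 male UMIs. For mof, under the size filter, it was 0.621 (0.481 to 0.814). Ratios of msl-1 and mle were 0.805 (0.683 to 0.954) and 0.953 (0.812 to 1.13), and that of msl-3 was 0.868 (0.644 to 1.20). The median ratio was 1.06 over 790 X-linked and 0.950 over 3700 autosomal genes, and 0.253% of the X-linked genes lay below roX2 and 1.27% below roX1. Sxl RNA was at 426 CPM among female and 305 CPM among male other cells.

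Cell types were assigned per cell from the marker lists, to the type with the largest share of its markers detected, and 5 types had at least 50 cells in both libraries. The make-up of other cells differed between the libraries. Neuroblast-like cells made up 13.8% of female and 20.9% of male other cells, and epidermis-like cells 9.37% and 15.1%. Mesoderm-like cells made up 13.5% and 7.98%, and haemocyte-like cells 11.1% and 3.78%. The part of make-up in the ratios over all other cells was not tested. The roX2 ratio was 0.212 in neuroblast-like cells (0.159 to 0.284), 0.354 in muscle-like cells (0.277 to 0.459), 0.330 in mesoderm-like cells (0.215 to 0.531) and 0.150 in epidermis-like cells (0.0993 to 0.231). In amnioserosa-like cells it was 0.930 (0.295 to 4.72), from 37 female and 3 male UMIs. The roX1 ratio was 0.648 in neuroblast-like, 0.490 in muscle-like, 0.547 in mesoderm-like and 0.820 in epidermis-like cells, and 1.07 in amnioserosa-like cells (0.950 to 1.20). For msl-2 it was 0.398 in neuroblast-like, 0.342 in muscle-like, 0.600 in mesoderm-like (0.248 to 1.89) and 0.423 in epidermis-like cells, with only 2 male UMIs in amnioserosa-like cells. For mof it was 0.714 in neuroblast-like, 1.10 in muscle-like, 0.684 in mesoderm-like, 0.302 in amnioserosa-like and 0.552 in epidermis-like cells, and every interval included 1, with 4 to 22 male UMIs a type. Both roX RNAs were thus lower in the female library in 4 of the 5 types, and the amnioserosa-like cells, of which 50 were male, had intervals that included 1.

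Within the female library roX1 and roX2 were spread differently over 10 types with at least 50 cells. The highest roX1 level was 2110 CPM in neuroblast-like cells (2083 to 2138), followed by 1682 CPM in epidermis-like (1649 to 1715), 1563 CPM in trachea-like (1522 to 1606) and 1452 CPM in amnioserosa-like cells (1409 to 1495). Neuron-like cells had 1145 CPM, glia-like cells 756 CPM and mesoderm-like cells 617 CPM. The lowest levels were 407 CPM in muscle-like (397 to 417), 375 CPM in visceral mesoderm-like (346 to 405) and 362 CPM in haemocyte-like cells (346 to 378), where the visceral mesoderm-like interval overlapped both of its neighbours. The order of roX2 ran largely the other way, apart from haemocyte-like cells, lowest in roX1 and at 18.2 CPM in roX2. It was highest in visceral mesoderm-like cells, at 82.9 CPM (69.8 to 97.7), followed by muscle-like cells at 42.4 CPM (39.2 to 45.9) and mesoderm-like cells at 31.3 CPM (27.4 to 35.6). It was lowest in amnioserosa-like cells at 12.3 CPM, epidermis-like cells at 11.1 CPM and trachea-like cells at 7.41 CPM (4.80 to 10.9), whose intervals overlap. Over the 10 types Spearman's rho between roX1 and roX2 was -0.72 and Pearson's r of log2(CPM + 10) was -0.74, a description of 1 library whose types share its depth and preparation.

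In the male library roX1 was at 3258 CPM in neuroblast-like cells, 2050 CPM in epidermis-like, 1362 CPM in amnioserosa-like, 1127 CPM in mesoderm-like and 830 CPM in muscle-like cells. This order is that of the female library. The male level of roX2 was 120 CPM in muscle-like cells (93.7 to 151), 94.9 CPM in mesoderm-like (60.2 to 142), 75.1 CPM in neuroblast-like (58.5 to 94.8) and 73.7 CPM in epidermis-like cells (52.2 to 101), and 13.2 CPM in amnioserosa-like cells (2.72 to 38.5). Apart from the amnioserosa-like cells, neighbours in that order did not differ beyond counting error. The protein genes varied less over female types with at least 50 cells. For mle the range ran from 30.5 CPM in haemocyte-like to 55.7 CPM in neuron-like cells, and for msl-1 from 21.1 CPM in haemocyte-like to 45.4 CPM in neuroblast-like cells. For mof it ran from 4.95 CPM in haemocyte-like to 17.3 CPM in neuron-like cells, all below the 45.8 CPM of female germ cells.

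**Figure D4:**
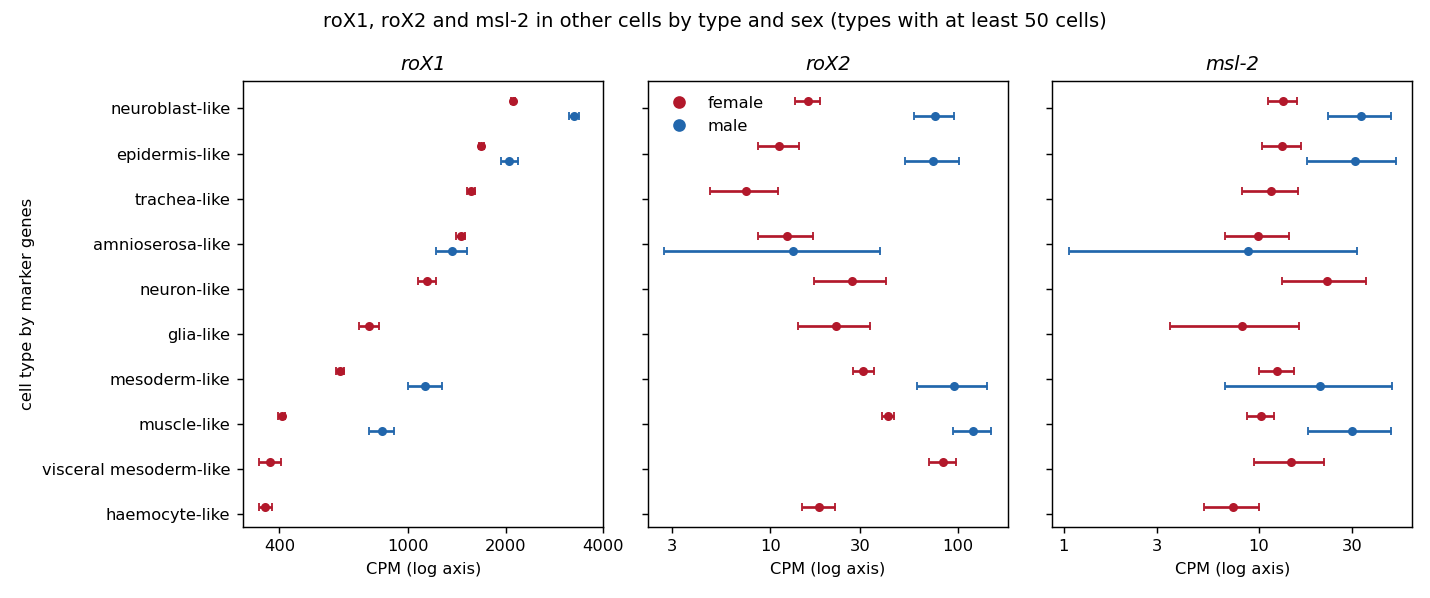
Levels of roX1, roX2 and msl-2 in CPM (log axes) in other cells by type, for types with at least 50 cells in the library shown; red points are the female and blue points the male library, and bars are exact Poisson intervals at 95%. Types run down the page from the highest to the lowest female roX1 level, and female roX2 was highest, at 82.9 CPM, in visceral mesoderm-like cells and lowest, at 7.41 CPM, in trachea-like cells.

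Single cells with more roX2 differed in roX1 between the sexed libraries. Among female other cells roX1 was at 1073 CPM in the 5400 cells with 0 roX2 UMIs, 946 CPM in the 739 cells with 1 and 718 CPM in the 310 cells with 2 or more. Among male other cells it was at 1695 CPM in the 522 cells with 0, 2389 CPM in the 133 cells with 1 and 2556 CPM in the 59 cells with 2 or more. The order was thus descending for females and ascending for males. From 0 to 2 or more roX2 UMIs, msl-2 was at 10.9, 13.3 and 13.9 CPM for females and at 24.4, 25.8 and 43.5 CPM for males. Median depth moved with the number of roX2 UMIs, at 7178.5, 7964 and 9796 UMIs for females and 3789.5, 4385 and 6292 UMIs for males, and the part of depth and of cell type was not tested.

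Unsexed germ cells were divided by pgc level, from high in newly formed cells to none in late ones, into 405 cells with at least 3000 CPM of pgc, 918 with 300 CPM or more, 838 with fewer and 1037 with none. From high to none roX1 stood at 84.3 CPM (77.5 to 91.5), 107 CPM (102 to 112), 40.9 CPM (37.7 to 44.4) and 31.8 CPM (29.2 to 34.6). It was thus highest in the middle level and low in the last 2 levels. Of the 3 members past the filter, roX1 alone was called, lower in cells without pgc, against 13.7% of 4988 genes called lower and 16.1% called higher, 29.9% in all. Its ratio of cells without pgc over cells high in pgc was 0.378 (0.335 to 0.425). Over all genes 804 were called higher and 685 lower, and with TMM scaling 615 were called higher and 876 lower. The summed level of the 78 markers of other types was 787, 736, 549 and 422 CPM from high to none, so it was lower in late cells as well. Without the marker-bearing cells the roX1 ratio was 0.406 (0.356 to 0.464), at 30.6 CPM in cells without pgc and 75.3 CPM in cells high in pgc.

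The enzyme genes ran the other way. From high to none mle stood at 13.4, 18.8, 24.4 and 26.4 CPM, and mof at 13.6, 19.4, 25.1 and 26.5 CPM. The ratio of cells without pgc over cells high in pgc was 1.97 for mle (1.57 to 2.49) and 1.95 for mof (1.56 to 2.47), both just under the limit, and the median over all genes was 1.10. The ratio of mle was 2.18 without the marker-bearing cells and that of mof 2.04 as a mean of per-cell CPM, both past the limit, and with TMM scaling the ratios were 1.71 for mle and 1.70 for mof. Levels of msl-1 were 10.5, 9.67, 8.56 and 10.9 CPM and those of msl-3 were 17.4, 14.6, 16.1 and 17.8 CPM, with ratios of 1.04 and 1.02 whose intervals included 1. The levels of msl-2 were 7.38, 5.39, 4.31 and 4.49 CPM, a ratio of 0.608 (0.421 to 0.886), and those of roX2 were 6.05, 7.71, 5.22 and 3.45 CPM, a ratio of 0.570 (0.377 to 0.870). Both were under the size filter. After thinning every cell to 2000 UMIs the ratio was 1.76 for msl-2 and 0.280 for roX2. Only 2 cells high in pgc then had an msl-2 UMI, and its direction was not stable.

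**Figure D5:**
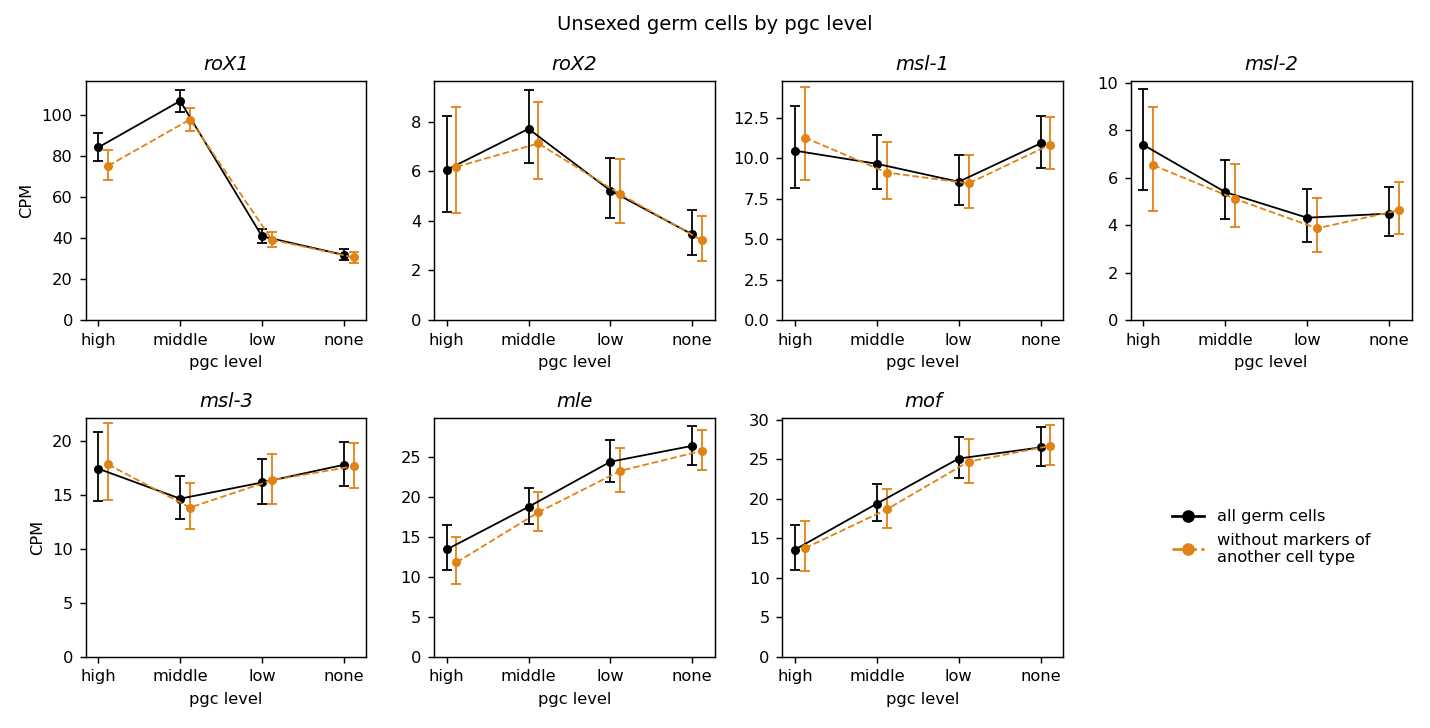
Levels of the 7 genes in CPM (linear axes from 0) in unsexed germ cells by pgc level, for all germ cells (black) and without cells that carried markers of another type (orange); bars are exact Poisson intervals at 95%. The roX1 level was lower at the low and none levels than at the first 2, and msl-1 and msl-3 stayed within a narrow range. Levels of mle and mof were higher at each later level, with the step from low to none within counting error.

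The share of cells with at least 1 UMI was compared after thinning each cell to 2000 UMIs. For roX1 it was 23.2% of female germ cells (Clopper-Pearson interval 20.7 to 25.9%), 16.5% of male germ cells (15.4 to 17.7%) and 11.1% of unsexed germ cells (9.99 to 12.2%). In other cells it was 63.0% for females (61.8 to 64.2%), 78.3% for males (74.9 to 81.4%) and 54.9% for the unsexed library (47.6 to 62.0%). For roX2 the share was 1.03% of female germ cells (0.513 to 1.83%) and 1.40% of male germ cells (1.07 to 1.79%), and 5.18% of female and 15.6% of male other cells. Before thinning the roX1 share was 75.7% of female and 44.7% of male germ cells, and 84.9% of female and 85.2% of male other cells. Thinning left out 1 female and 5 male germ cells and 45 female and 79 male other cells. Before thinning the roX2 share was 9.51% of female and 6.35% of male germ cells, an order opposite to that of the CPM, and 16.3% of female and 26.9% of male other cells. No cell class here is known to lack roX1 or roX2, so the share due to free RNA could not be read from one.

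Genes linked to the complex, to Sxl or to Mof were counted from 3 lists. Among 7 cofactors (Clamp, JIL-1, Trl, Rm62, Top2, Iswi and Set2), 9 genes around Sxl, called regulators here (Sxl, Unr, how, Hrb27C, fl(2)d, vir, snf, tra and tra2) and 6 genes of the NSL complex, which shares Mof with the Msl proteins, 0 were called between female and male germ cells or between female and male other cells, against 1.07% and 2.73% of all genes. Of the regulators, tra is a splicing target of Sxl and tra2 encodes the partner of Tra, and neither is known to act on msl-2. In germ cells the median ratio was 0.988 over 6 cofactors past the filter, 1.03 over 9 regulators and 1.06 over 6 NSL genes, against 0.955 over all genes tested. Among genes past the filter, the highest ratio of each list there was 1.18 for Trl, 1.76 for Sxl and 1.61 for wds, and the lowest was 0.959 for JIL-1, 0.922 for tra2 and 0.906 for dgt1. Both Sxl and wds are X-linked, and the median X-linked gene was at 1.46 in germ cells. Of X-linked genes, 88.2% had a lower ratio than Sxl and 74.3% a lower ratio than wds. In other cells the median was 0.981 over 6 cofactors, 1.05 over 8 regulators and 0.950 over 6 NSL genes, against 0.969 over all genes. The highest ratio there was 1.26 for Trl, 1.40 for Sxl and 1.09 for nsl1, and the lowest was 0.879 for Iswi, 0.783 for tra2 and 0.805 for dgt1.

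Between germ and other cells, 1 cofactor was called higher and 1 lower in each sexed library, where 35.9% and 35.2% of all genes were called higher and 15% and 15.4% lower. Top2, a topoisomerase gene, had a ratio of germ over other cells of 2.73 in both libraries, which TMM scaling brought to 1.91 in females, under the limit, and 2.41 in males. The ratio of Trl, which encodes the GAGA factor, was 0.405 for females and 0.431 for males. Of the regulators, vir, a gene of the Sxl splicing machinery, was called higher, at 3.01 for females and 2.97 for males. Sxl, tra and tra2 were called lower in both, with Sxl at 0.329 for females and 0.261 for males, tra at 0.409 and 0.432, and tra2 at 0.373 and 0.317. With TMM scaling how and Hrb27C were also called lower in females, at 0.484 and 0.445. Of the NSL genes 0 were called in either library, and the highest was Rcd1 at 1.97 for females and 1.78 for males. The lowest NSL ratio was 1.23 for nsl1 in females and 0.867 for wds in males. List medians in females were 1.07 for cofactors, 0.691 for regulators and 1.53 for NSL genes, against 1.49 over all genes, and in males 1.02, 0.925 and 1.30, against 1.42. Between pgc levels of unsexed germ cells 2 regulators were called, how at 2.45 and tra at 2.26, both higher in cells without pgc, against 16.1% of all genes called higher. With TMM scaling how was at 2.14 and tra at 1.97, under the limit, and the NSL gene Rcd1 was called lower at 0.488. There the cofactors ran from 0.633 for Clamp to 1.78 for Iswi, and the NSL genes from 0.559 for Rcd1 to 1.99 for MBD-R2. The lowest regulator was Unr, a repressor of msl-2 translation, at 0.704. Medians there were 1.38 over 5 cofactors, 1.29 over 8 regulators and 1.12 over 6 NSL genes, against 1.10 over all genes.

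Genes most like 3 of the members were ranked by Pearson's r of log2(CPM + 10) over 17 classes of the sexed libraries, the germ cells and the types with at least 50 cells, among 6700 other genes with at least 20 CPM in 1 class. The genes most like roX1 were trn (r = 0.94), fra (0.94) and CG13454 (0.93), of which trn and CG13454 were highest in female epidermis-like and fra in female neuron-like cells. Those most like roX2 were CG1416 (0.88), the X-linked gene mRpS25 (0.85) and Tsp96F (0.82), with Tsp96F highest in female visceral mesoderm-like cells. Those most like msl-2 were mthl8 (0.90), Lhr (0.90) and CG10375 (0.86), and mthl8 and Lhr were highest in male neuroblast-like cells. The classes of a library share its depth and preparation, and these values are descriptions.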

How the data were processed

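The deposited matrices hold whole-number UMI counts for each gene in each cell, which the authors obtained with Cell Ranger on build BDGP6, per the submitters' processing notes; the files were written by 10x software versions 3.0.1 (unsexed) and 3.1.0 (female and male), per the file headers. The unsexed dense table equals its matrix, and the female and male dense tables hold 1.19 and 2.52 times the counts at shared barcodes for a reason not given in the sources used here; they served as an alternative.

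The cell filter asked for 1000 UMIs, 500 genes and no more than 20% mitochondrial UMIs. Mitochondrial genes, at 0 UMIs in both sexed libraries, did not enter CPM. Scrublet in scanpy 1.11.5 marked 389 female, 5 male and 26 unsexed cells, and 5 of 6687 is too few for a working caller. The highest-scoring cells were therefore removed at 0.8% per 1000 cells, which took out 845 female, 358 male and 114 unsexed cells. Types were assigned per cell by the largest share of a marker list detected, a scoring set after cells were seen, and 329 female, 23 male and 4 unsexed other cells with ties entered no type. The 1826 female, 376 male and 98 unsexed other cells at exactly 3 markers lie at the limit of that rule.

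UMIs were summed per class and scaled to CPM. Intervals at 95% are exact Poisson for levels, Clopper-Pearson for shares and exact conditional for ratios, and cover counting error only. No test was run. TMM factors came from edgeR 4.0.16. The interval and call rules were run on simulated Poisson counts, for the female over male comparisons only. These counts follow the model of the intervals and hold no variation between cells or libraries, so they cannot check for it. The named genes are the 7 members, those of each list past the limit with its highest and lowest ratio, and the 3 genes most like roX1, roX2 and msl-2. The alternatives were other doublet, cell, germ and pgc rules, TMM, thinning, per-cell means, clusters, other fold and CPM limits and the dense tables. The members, lists and classes were chosen with earlier results of these data known. Gene positions come from Ensembl release 115.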

Additional observations from a re-analysis of the deposited data

Results flagged for a closer look

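The female over male ratio of roX1 was 1.76 in germ cells and 0.536 in other cells, and that of mof was 1.32 in germ cells and 0.621 in other cells. Each lay above 1 in germ cells and below 1 in other cells, with intervals clear of 1. In germ cells 97.6% of 912 X-linked genes lay above 1, with a median of 1.46. In the 5 cell types compared, each interval of mof included 1. The difference between the classes was not tested, since each sex was 1 library. The make-up of other cells by type also differed between the sexed libraries, and its part was not tested. In other cells mof had 707 female and 65 male UMIs.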

How the results depend on the processing

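Of 364 member ratios recomputed under alternatives, 321 stayed within the counting interval of the reported ratio and 43 moved beyond it. No called ratio changed direction. The roX1 ratio of female over male germ cells, 1.76 as reported, was 1.37 with at least 4 germ genes, 1.19 with classes by cluster, 1.27 without cells carrying markers of another type, 1.65 as a mean of per-cell CPM and 2.35 with likely doublets kept, where 1 member was past the limit. In other cells the roX1 ratio, 0.536 as reported, was 0.582 with TMM, 0.637 by cluster and 0.550 with doublets kept. The germ over other ratio of roX1 in the female library, 0.178 as reported, was 0.124 with TMM, 0.130 with at least 4 germ genes, 0.111 by cluster, 0.186 after thinning, 0.114 without marker-bearing cells and 0.268 with doublets kept. In the male library, 0.0541 as reported, it was 0.0478 with TMM, 0.0508, 0.0596, 0.0584, 0.0478 and 0.0627 in that order, and 0.0602 as a mean of per-cell CPM. The roX1 ratio of pgc none over high, 0.378 as reported, was 0.323 with 4 equal bins, 0.329 with TMM and 0.313 with pgc limits of 100 and 1000 CPM. The number of members past the limit there was 2 without marker-bearing cells and 2 as a mean of per-cell CPM.

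The number of genes called between the sexes in germ cells, 55 as reported, was 159 with a filter of 5 CPM and 443 at a limit of 1.5. In other cells it was 125, 354 and 474 in the same order, and between pgc levels the 1489 called genes became 2573 at 1.5. The log2 ratio of TMM factors, by which log2 ratios were lowered, was -0.06 in germ cells and -0.12 in other cells between the sexes, 0.20 between pgc levels, and 0.52 for females and 0.18 for males between germ and other cells. Ratios of msl-1, msl-2, msl-3 or mle lay on the other side of 1 in 12 cases. Leaving out barcodes found in more than 1 library, chosen after seeing the data, moved no member beyond its interval. TMM scaling of the list genes was also chosen after seeing the data. The cause was not tested in any of these cases. No paired analysis was possible because each group was 1 library. Within the sexed libraries depth limits male other cells most, where msl-3 had 46, mof 65, msl-2 90, msl-1 154, mle 159 and roX2 284 UMIs. Unsexed other cells held fewer still, with 16 UMIs for msl-3, 4 for mof, 26 for msl-2, 27 for msl-1, 29 for mle and 58 for roX2.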
